A study of Schizosaccharomyces pombe with 9 samples.

Results

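The proteasome genes of fission yeast (*Schizosaccharomyces pombe*) were taken as all probe sets whose gene symbol was rpn, rpt, pre, pup, scl, ump or pts followed by a number, or was *mts2*, *mts4* or *pad1*. The rule gave 27 genes, each with 1 probe set, of 2899 *S. pombe* genes named on the array. Of these, 8 encode the core particle, 18 the regulatory cap and 1, *ump1*, a chaperone of core assembly. In the current annotation *mts2* is *rpt2* and *pad1* is *rpn11*, and *mts4* is the gene of the subunit called Rpn1 in other species. The rule used names and no measured values. A further 7 genes whose symbols have the same form had no probe set named for 1 gene and were not analysed here.

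The proteasome degrades proteins that carry a chain of ubiquitin. Its core particle is a barrel of stacked alpha and beta rings with the proteolytic sites inside the beta rings, and the cap that binds its ends has a base, where 6 different ATPases unfold substrates, and a lid, which holds the deubiquitinating subunit. In dividing yeast the complex removes cyclins and securin after the anaphase-promoting complex has marked them.

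The study asked how deletion of genes needed to survive DNA damage alters transcript levels. Total RNA came from untreated cells in exponential growth, at an OD600 of 0.5 to 1, and was hybridised to Affymetrix Yeast Genome 2.0 arrays. There were 9 arrays, 1 for each genotype, so no value below has a replicate and no difference could be tested. The 8 strains lacked, in turn, *sgf73*, *meu29*, *sec65*, *pab1*, *ash2*, *SPAC3F10.17*, *SPAC27D7.08c* and *SPBC2A9.02* (written *sgf73*Δ and so on), and were compared with wild type (WT). Sgf73 is a subunit of the SAGA chromatin complex, Sec65 of the signal recognition particle, Pab1 of a protein phosphatase and Ash2 of the complex that methylates histone H3. The deletions belong to a library of haploid strains, whereas WT was labelled SP286 diploid with the genotype h+ *ade6-M210 ura4-D18 leu1-32*, so that ploidy as labelled and deletion cannot be told apart in a ratio to WT. By flow cytometry the study also reported a peak of doubled DNA content in *sgf73*Δ and *meu29*Δ, stronger in *sec65*Δ and *pab1*Δ, and proposed diploidization. It reported a shift to lower DNA content in *SPAC27D7.08c*Δ and *SPBC2A9.02*Δ. DNA content and deletion cannot be told apart either. Because RNA came from whole cultures, the same is true of fewer cells of one kind and less RNA per cell.

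The labels were checked on the deleted genes. On its own array the *sgf73* transcript was 33.8-fold lower than in WT, that of *meu29* 12.6-fold lower, and that of *ash2* was at background and at least 23.0-fold lower. The *sec65* and *pab1* transcripts kept 0.679 and 0.609 of the WT signal on the arrays that carry their names. These 2 arrays were also the closest pair of all, with an SD of the log2 difference of 0.14 over all genes and 0.065 over the proteasome genes. They are therefore called the *sec65*-labelled and *pab1*-labelled arrays. Counts of deletions based on the median of a gene group are given with and without them. Other counts of deletions include them. The other 3 deleted genes had no named probe set and could not be checked.

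All 27 proteasome transcripts were well measured. Their log2 signals lay between 10.49 and 13.14 on the 9 arrays, where background was 5.18 to 5.33, the level below which 95% of 2593 *S. cerevisiae* probe sets fell. The array also holds 32 probe sets for *S. cerevisiae* proteasome genes, which should find no partner in this RNA. Of those, 26 were above background on no array and 1 on all 9, and their highest log2 signal was 5.99. Signals of different probe sets depend on their probes as well as on the transcript, so values are compared here only within a gene.

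None of the 27 genes differed from WT by 1.5-fold or more in any deletion. Among all measured genes the share past 1.5-fold in either direction was 18.4% in *sgf73*Δ, 16.2% in *meu29*Δ, 8.54% in *ash2*Δ, 11.6% in *SPAC3F10.17*Δ, 6.72% in *SPAC27D7.08c*Δ, 6.21% in *SPBC2A9.02*Δ, and 3.9% and 4.39% on the *sec65*-labelled and *pab1*-labelled arrays. Among the 1032 genes whose mean signal lay within the range of the proteasome genes, the share was 13.5% in *sgf73*Δ, 13% in *meu29*Δ and between 3.59% and 8.14% in the other 6. At a lower threshold of 0.32 on the log2 scale, 3 proteasome genes passed in *sgf73*Δ, where 41.3% of all genes did, and 1 in *meu29*Δ, where 38.6% did. One passed in *ash2*Δ (25% of all genes) and 1 in *SPAC3F10.17*Δ (33.5%). No proteasome gene passed it on the *sec65*-labelled and *pab1*-labelled arrays (12.8% and 14.9% of all genes), in *SPBC2A9.02*Δ (18.1%) or in *SPAC27D7.08c*Δ (21.6%). Of the 216 ratios of a proteasome gene to WT, 207 lay within 2 SD of the closest 2 arrays, taken over all genes, which was 0.29 on the log2 scale. The same held for 70.5% of the ratios of all genes. Over the proteasome genes alone the SD of that pair was 0.065, so the limit of 0.29 is wide for them. With the smaller SD fewer than 207 ratios would lie within 2 SD.

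**Figure D1:**
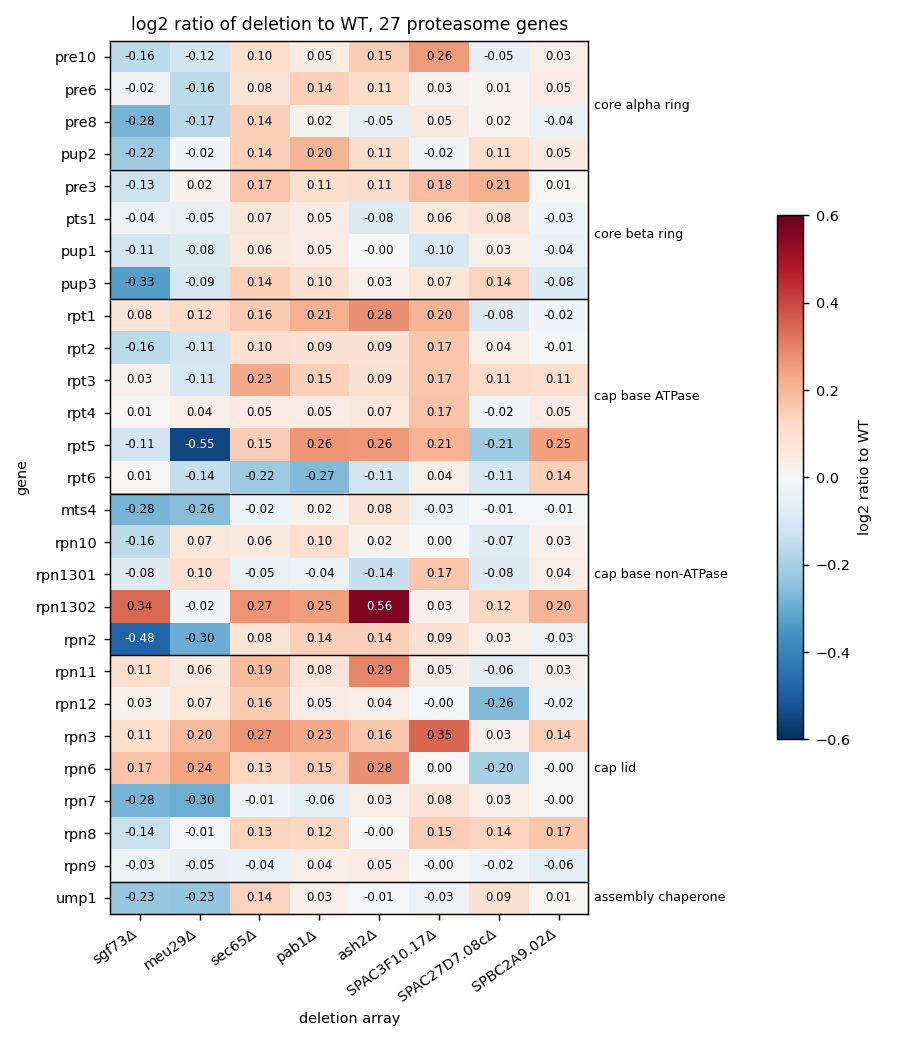
Log2 ratio of each deletion array (columns) to the WT array for the 27 proteasome genes (rows), grouped by their place in the particle, with 1 array per genotype. Blue is lower and red is higher than in WT; the values run between -0.55 (*rpt5* in *meu29*Δ) and 0.56 (*rpn1302* in *ash2*Δ), and no cell reaches the 0.58 that stands for 1.5-fold.

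The map of ratios shows that the small differences were not spread evenly. In the *sgf73*Δ and *meu29*Δ columns the core genes, apart from *pre3* in *meu29*Δ (0.019), *ump1* and a subset of cap genes are below 0. The lid genes *rpn3*, *rpn6*, *rpn11* and *rpn12* and the ATPase genes *rpt1* and *rpt4* are above 0 in both columns.

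The core particle genes were lower in *sgf73*Δ in 8 of 8 cases and in *meu29*Δ in 7 of 8, where 42.9% and 39.8% of all genes were lower. Their median log2 ratio to WT was -0.14 in *sgf73*Δ and -0.089 in *meu29*Δ, where the medians of all genes were 0.054 and 0.060. On the *sec65*-labelled and *pab1*-labelled arrays all 8 core genes were higher than in WT, as were 55.1% and 56.0% of all genes, with medians of 0.12 and 0.074 against 0.023 and 0.017 for all genes. The core median was 0.069 in *ash2*Δ and 0.055 in *SPAC27D7.08c*Δ, against -0.0062 and -0.0033 for all genes. It was 0.058 in *SPAC3F10.17*Δ and -0.0099 in *SPBC2A9.02*Δ, against 0.069 and -0.027 for all genes.

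Among the alpha ring genes, *pre8* (*SPCC1442.06*) and *pup2* (*SPAC323.02c*) had the largest differences in *sgf73*Δ. *pre8* had a log2 signal of 12.34 in *sgf73*Δ and 12.45 in *meu29*Δ, between 12.57 and 12.76 in the other 6 deletions, and 12.62 in WT. *pup2* had 12.72 in *sgf73*Δ, between 12.92 and 13.14 in the other 7 deletions, and 12.94 in WT. For both genes the *sgf73*Δ array was the lowest of the 9. *pre10* (*SPCC1795.04c*) had 11.77 in *sgf73*Δ and 11.81 in *meu29*Δ, which were its 2 lowest values, 12.18 in *SPAC3F10.17*Δ, its highest, and 11.92 in WT. *pre6* (*SPBC106.16*) was 0.020 lower than WT on the log2 scale in *sgf73*Δ and 0.16 lower in *meu29*Δ, so that it had its lowest signal in *meu29*Δ.

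In the beta ring, *pup3* (*SPCC63.12c*) gave the largest core difference of the series. Its log2 signal was 12.08 in *sgf73*Δ, 12.31 in *meu29*Δ, 12.55 and 12.51 on the *sec65*-labelled and *pab1*-labelled arrays, 12.44 in *ash2*Δ, 12.48 in *SPAC3F10.17*Δ, 12.55 in *SPAC27D7.08c*Δ, 12.33 in *SPBC2A9.02*Δ and 12.41 in WT. The ratio of *sgf73*Δ to WT was 0.794, and the *sgf73*Δ array stood below all others. The genes of the subunits that carry proteolytic sites, *pre3* (*SPBC4C3.10c*), *pup1* (*SPAC23D3.07*) and *pts1* (*SPAC4A8.13c*), differed less. *pts1*, the gene of the chymotrypsin-like subunit, had log2 signals between 12.63 in *ash2*Δ and 12.78 in *SPAC27D7.08c*Δ, and 12.71 in WT. *pup1* lay between 12.66 in *sgf73*Δ and 12.83 on the *sec65*-labelled array, and at 12.77 in WT. *pre3* was 0.13 lower on the log2 scale than WT in *sgf73*Δ and 0.21 higher in *SPAC27D7.08c*Δ.

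*ump1* (*SPCC14G10.03c*), whose product is built into the immature core and is degraded when the core matures, had its lowest signals in the same deletions. Its log2 signal was 12.39 in *sgf73*Δ and 12.38 in *meu29*Δ, between 12.58 and 12.75 in the other 6 deletions, and 12.61 in WT. The log2 ratios of the first 2 were -0.23 each.

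The cap genes did not move in 1 direction in these deletions. In *sgf73*Δ 9 of the 18 were higher and 9 lower than in WT, and in *meu29*Δ 8 were higher and 10 lower, with medians of -0.012 and -0.013. Of all genes, 57.1% were higher in *sgf73*Δ and 60.2% in *meu29*Δ. On the *sec65*-labelled and *pab1*-labelled arrays 13 and 15 of 18 were higher, against 55.1% and 56.0% of all genes. In both *ash2*Δ and *SPAC3F10.17*Δ 15 of 18 were higher, where 48.6% and 60.8% of all genes were. In *SPAC27D7.08c*Δ 11 of 18 were lower (50.6% of all genes), and in *SPBC2A9.02*Δ 10 were higher (44.4%).

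In the base, the ATPase gene *rpt5* (*SPAC3A11.12c*) varied most of all 27. Its log2 signal was 10.92 in *sgf73*Δ, 10.49 in *meu29*Δ, 11.18 and 11.30 on the *sec65*-labelled and *pab1*-labelled arrays, 11.29 in *ash2*Δ, 11.24 in *SPAC3F10.17*Δ, 10.82 in *SPAC27D7.08c*Δ, 11.28 in *SPBC2A9.02*Δ and 11.03 in WT. The *meu29*Δ array was thus at 0.684 of WT. WT lay in the middle of the 9 arrays, with 3 deletions below it and 5 above. *rpt2* (*SPBC4.07c*), the *mts2* gene of the rule, had 12.48 in *sgf73*Δ and 12.54 in *meu29*Δ, between 12.63 and 12.81 in the other 6 deletions, and 12.65 in WT. *rpt1* (*SPBC16C6.07c*) had its highest log2 signal, 12.97, in *ash2*Δ, its lowest, 12.62, in *SPAC27D7.08c*Δ, and 12.69 in WT. *rpt6* (*SPBC23G7.12c*) ran against the other ATPase genes on the *sec65*-labelled and *pab1*-labelled arrays, with log2 ratios of -0.22 and -0.27, whereas the other 5 were higher than WT there. In *SPAC3F10.17*Δ all 6 ATPase genes were higher than in WT, as were 60.8% of all genes, with a median log2 ratio of 0.17, while the median of all genes there was 0.069.

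The scaffold genes of the base, *rpn2* (*SPBC17D11.07c*) and *mts4* (*SPBP19A11.03c*), followed the core genes. *rpn2* had a log2 signal of 10.99 in *sgf73*Δ, 11.17 in *meu29*Δ, 11.55 and 11.61 on the *sec65*-labelled and *pab1*-labelled arrays, 11.61 in *ash2*Δ, 11.55 in *SPAC3F10.17*Δ, 11.50 in *SPAC27D7.08c*Δ, 11.43 in *SPBC2A9.02*Δ and 11.47 in WT. The ratio to WT was 0.718 in *sgf73*Δ and 0.814 in *meu29*Δ. Both arrays lay below the other 7. *mts4* had 12.36 in *sgf73*Δ and 12.39 in *meu29*Δ, between 12.61 and 12.72 in the other 6 deletions, and 12.64 in WT.

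The genes *rpn1301* and *rpn1302*, which encode paralogous ubiquitin receptors of the base, did not move alike. *rpn1302* (*SPCC16A11.16c*) had a log2 signal of 10.85 in *sgf73*Δ, 10.49 in *meu29*Δ, 10.78 and 10.76 on the *sec65*-labelled and *pab1*-labelled arrays, 11.07 in *ash2*Δ, 10.53 in *SPAC3F10.17*Δ, 10.63 in *SPAC27D7.08c*Δ, 10.71 in *SPBC2A9.02*Δ and 10.51 in WT. It was 1.48-fold higher in *ash2*Δ and 1.27-fold higher in *sgf73*Δ than in WT. Every deletion array but *meu29*Δ stood above WT. *rpn1301* (*SPBC342.04*) had log2 ratios of -0.14 in *ash2*Δ and -0.078 in *sgf73*Δ. The third ubiquitin receptor gene of the base, *rpn10* (*SPAC637.10c*), had log2 ratios of -0.16 in *sgf73*Δ and between -0.073 and 0.10 in the other deletions.

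The lid held both the steadiest gene and *rpn6*, which ran against the core in *sgf73*Δ, *meu29*Δ and *SPAC27D7.08c*Δ. *rpn9* (*SPAC607.05*) had log2 signals between 12.51 in *SPBC2A9.02*Δ and 12.62 in *ash2*Δ, with 12.57 in WT, the smallest range of the 27. *rpn11* (*SPAC31G5.13*), the *pad1* gene of the rule and the gene of the deubiquitinating subunit, had 12.26 in *ash2*Δ, between 11.91 and 12.16 in the other 7 deletions, and 11.97 in WT. Its *ash2*Δ signal was the highest of the 9 and 1.23-fold that of WT. *rpn3* (*SPBC119.01*) was higher than WT in all 8 deletions, with log2 ratios from 0.032 in *SPAC27D7.08c*Δ to 0.35 in *SPAC3F10.17*Δ. WT, at 12.34, held the lowest of its signals on the arrays, so that the 1 WT array enters each of these ratios. *rpn6* (*SPAC23G3.11*) had log2 ratios of 0.17 in *sgf73*Δ, 0.24 in *meu29*Δ and -0.20 in *SPAC27D7.08c*Δ. It was on the same side of WT as the core median on the *sec65*-labelled and *pab1*-labelled arrays (0.13 and 0.15) and in *ash2*Δ (0.28). *rpn7* (*SPBC582.07c*) went with the core, with -0.28 in *sgf73*Δ, -0.30 in *meu29*Δ and between -0.060 and 0.083 in the other deletions. *rpn12* (*SPBC16G5.01*) was at -0.26 in *SPAC27D7.08c*Δ, its lowest array.

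**Figure D2:**
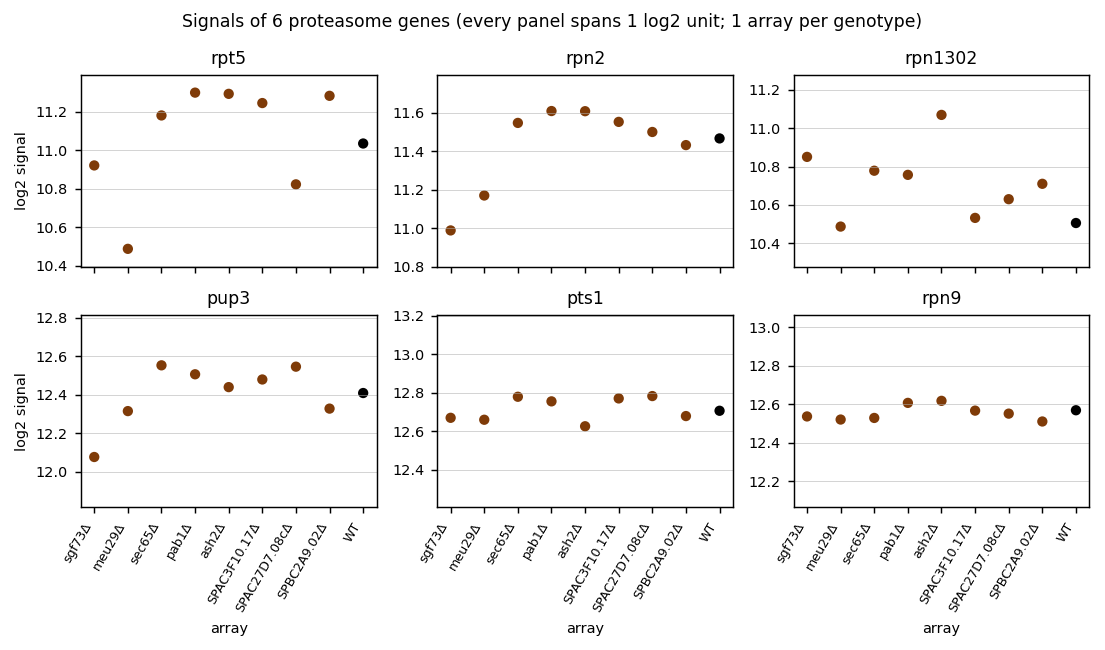
Log2 signals of 6 proteasome genes on the 8 deletion arrays (brown) and the WT array (black), 1 point per array, with 1 log2 unit on every vertical axis. The upper row shows *rpt5*, *rpn2* and *rpn1302*, the genes with the largest ranges; *pup3* has its lowest value in *sgf73*Δ, while *pts1* and *rpn9* span 0.16 and 0.11.

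In the panels of signals *rpt5* and *rpn1302* were lowest in *meu29*Δ, and *rpn2* and *pup3* in *sgf73*Δ. *rpn1302* and *rpn9* were highest in *ash2*Δ, *rpt5* and *rpn2* on the *pab1*-labelled array, and WT was at the upper end for none of the 6.

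**Figure D3:**
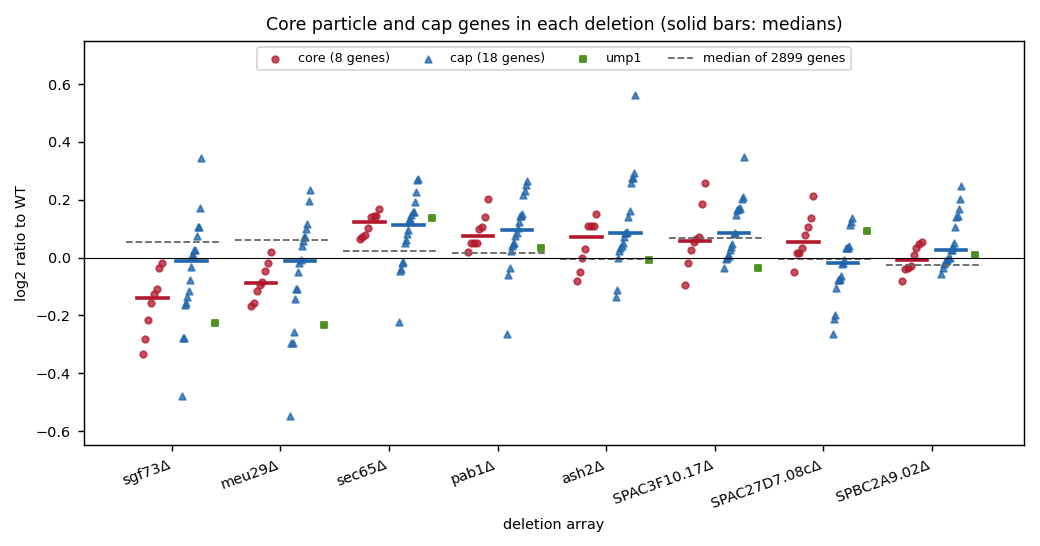
Log2 ratio to WT of the 8 core genes (red circles), the 18 cap genes (blue triangles) and *ump1* (green squares) on each deletion array, with solid bars for the medians of core and cap and dashed lines for the median of 2899 genes. In *sgf73*Δ every core gene lies below 0 while the cap genes run from -0.48 to 0.34.

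Set side by side, the cap median lay above the core median in 6 of 8 deletions, and in 5 of the 6 that remain without the *sec65*-labelled and *pab1*-labelled arrays. The widest gap was in *sgf73*Δ, where cap minus core was 0.13 on the log2 scale. It was 0.076 in *meu29*Δ, -0.010 and 0.020 on the *sec65*-labelled and *pab1*-labelled arrays, 0.015 in *ash2*Δ, 0.026 in *SPAC3F10.17*Δ and 0.035 in *SPBC2A9.02*Δ. *SPAC27D7.08c*Δ showed the opposite order, with a difference of -0.074. There the core median was 0.055, with 7 of 8 genes higher than in WT, and the cap median was -0.019. The values of core and cap genes overlapped in every deletion, and with 1 array per genotype none of these differences could be set against a spread between replicates.

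Within *sgf73*Δ the cap did not split cleanly into base and lid. The median log2 ratio was 0.0087 for the 6 ATPase genes, -0.16 for the other 5 base genes and 0.026 for the 7 lid genes, against -0.19 for the alpha and -0.12 for the beta ring genes. In *SPAC27D7.08c*Δ the beta ring had the highest median, 0.11, and the ATPase genes the lowest, -0.049.

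The median over all 27 genes was above the median of all *S. pombe* genes in 5 of 8 deletions, and in 3 of 6 without the *sec65*-labelled and *pab1*-labelled arrays. The same counts held for core and cap taken alone. The median of the 27 was -0.11 in *sgf73*Δ, -0.048 in *meu29*Δ, 0.13 and 0.086 on the *sec65*-labelled and *pab1*-labelled arrays, 0.084 in *ash2*Δ, 0.064 in *SPAC3F10.17*Δ, 0.0078 in *SPBC2A9.02*Δ, with 0.016 in *SPAC27D7.08c*Δ. All of these ratios share the single WT array, so that the deletions are not independent of each other.

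**Figure D4:**
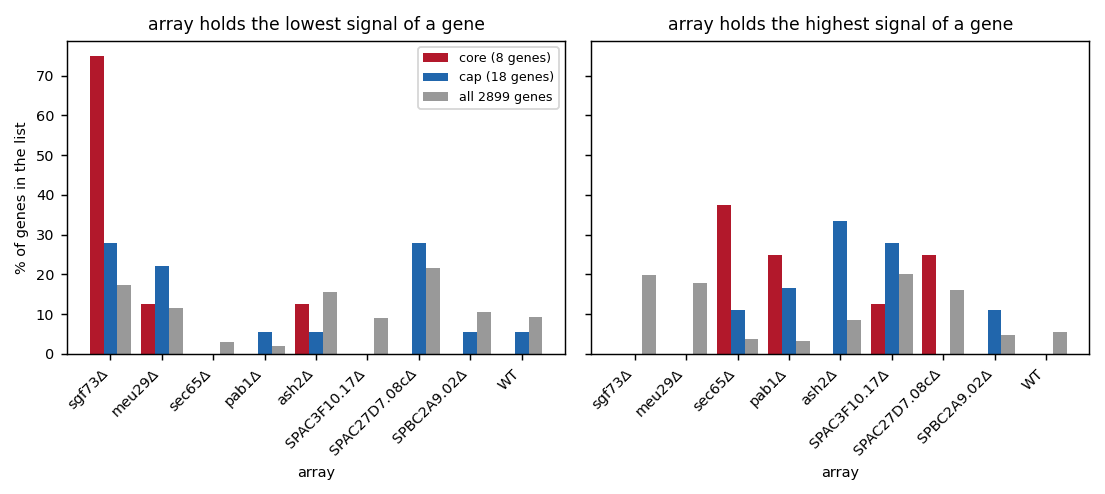
Share of core genes (red), cap genes (blue) and all 2899 genes (grey) for which a given array holds the lowest (left) or the highest (right) signal of the 9, with the 8 deletions first and WT last. The *sgf73*Δ array is the lowest for 75% of the core genes, 27.8% of the cap genes and 17.2% of all genes, and the highest for no proteasome gene.

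Which array was lowest or highest does not depend on WT as the denominator. The *sgf73*Δ array held the lowest of the 9 signals for 11 of the 27 genes, 6 of them among the 8 core genes and 5 among the 18 cap genes, where it did so for 17.2% of all genes. It held the highest signal for none, where it did so for 19.8% of all genes. The *meu29*Δ array was lowest for 6 of the 27 and highest for none, against 11.6% and 17.8% of all genes. These 2 arrays together were the lowest pair for 10 of the 27 genes (*pre6*, *pre8*, *pre10* and *pup3* of the core, 5 cap genes and *ump1*), or 37.0%, and for 11.5% of all genes. The *SPAC27D7.08c*Δ array was lowest for 5 cap genes and no core gene, and for 21.7% of all genes. It was highest for 2 core genes and no cap gene, and for 16.1% of all genes, but after quantile normalization it was highest for 3 core and 2 cap genes. The *ash2*Δ array was highest for 6 cap genes and no core gene, and for 8.66% of all genes. After median scaling it was highest for 11 cap genes and 1 core gene. WT was lowest for 1 gene, *rpn3*, and highest for none.

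**Figure D5:**
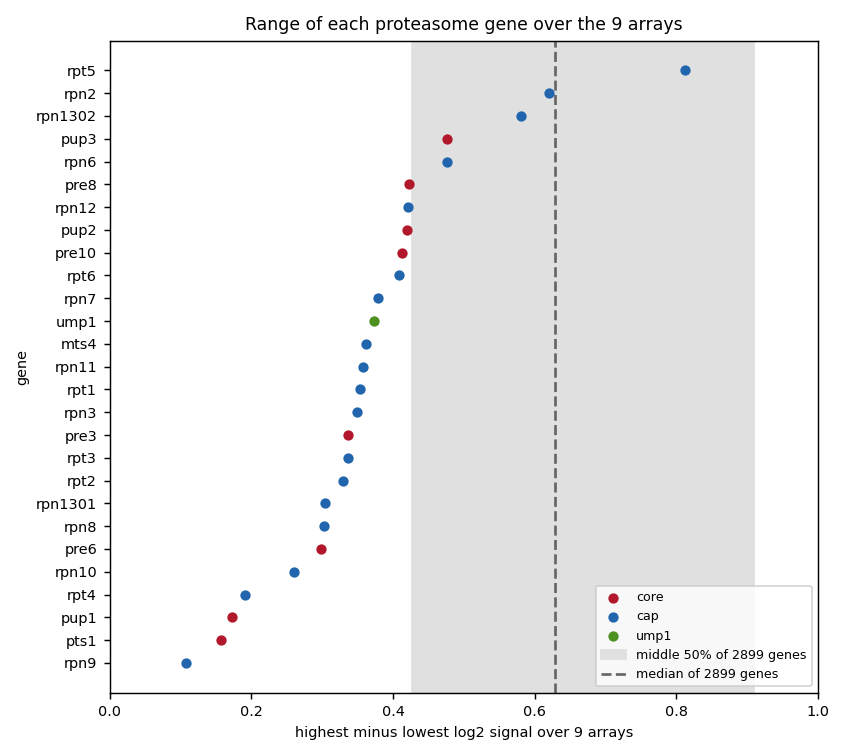
Range of each proteasome gene over the 9 arrays, as the highest minus the lowest log2 signal, sorted, with core genes in red, cap genes in blue and *ump1* in green. The grey band holds the middle 50% of 2899 genes and the dashed line their median of 0.63; *rpt5*, at 0.81, is the 1 proteasome gene to the right of that line.

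The proteasome genes varied over a narrower range than most genes. The median range over the 9 arrays was 0.36 on the log2 scale, or 1.28-fold, while it was 0.63, or 1.55-fold, for all genes, and 0.56 for the 1032 genes of like signal. The medians of core and cap lay close together, at 0.37 and 0.36. The alpha ring genes had a median range of 0.42 and the beta ring genes 0.25. The largest ranges were those of *rpt5* (0.81), *rpn2* (0.62) and *rpn1302* (0.58), all in the base of the cap, and the smallest those of *rpn9* (0.11), *pts1* (0.16) and *pup1* (0.17). *rpt5*, *rpn2* and *rpn1302* also had the lowest mean log2 signals of the proteasome genes, at 11.06, 11.43 and 10.70. A place in the base and a lower signal cannot be told apart for them. *rpn1302* also set the lower bound of signal for the 1032 genes.

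The signals also moved together from array to array, and more so in the core than in the cap. Over the 9 arrays the median Pearson correlation between 2 genes was 0.64 for the 28 pairs within the core, 0.27 for the 153 pairs within the cap and 0.33 for the 144 pairs of a core and a cap gene, where it was 0.031 for pairs of all genes. These are descriptions over 9 arrays that share a normalization, and the genes of a pair were measured on the same RNA. Without both the *sgf73*Δ and the *meu29*Δ array the median within the core was 0.24, below the 0.32 within the cap, while leaving out either alone gave 0.57 and 0.63 for the core. The higher value in the core thus rested on these 2 arrays together.

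Cap genes differed in how closely they followed the core. The correlation of a gene with the mean of the core genes over the 9 arrays was 0.95 for *rpn2*, 0.93 for *rpt2*, 0.84 for *mts4* and 0.81 for *rpn7*, and 0.90 for *ump1*. At the other end it was -0.42 for *rpt6* and -0.29 for *rpn6*. By group, the medians were 0.55 for the 5 base genes that are not ATPases, 0.44 for the 6 ATPase genes and 0.35 for the 7 lid genes, so that each group held genes of both kinds. The core genes, each set against the mean of the other core genes, had values from 0.60 (*pts1*) to 0.94 (*pup3*). All these values include the *sgf73*Δ and *meu29*Δ arrays, without which the median over core and cap pairs was 0.17.

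The genes were spread over the chromosomes, with 8 on chromosome I, 11 on II and 8 on III. The nearest neighbours were *rpn1301* and *rpn12*, with 2 protein-coding genes between them in the annotation of the assembly ASM294v3. *rpn8* and *rpt4* had 5 genes between them, and *pre6* and *rpn7* had 8.

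Other genes of ubiquitin-dependent degradation were read from lists with the same 1.5-fold threshold. *dss1*, the gene of a small lid subunit that the symbol rule does not reach, was at 0.623 of WT in *SPAC27D7.08c*Δ, with a log2 signal of 9.95 there and 10.64 in WT. It was the only subunit gene measured that passed 1.5-fold. *pam1*, a core subunit gene under another symbol, had log2 ratios of -0.30 in *sgf73*Δ and -0.34 in *meu29*Δ, on the same side of WT as the core genes there.

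Of 40 listed genes of ubiquitin supply, shuttling and deubiquitination, 35 were measured, and their medians lay between -0.081 and 0.041. None was 1.5-fold higher in any deletion. The number lower was 3 in *sgf73*Δ, 5 in *meu29*Δ, 2 each in *ash2*Δ and *SPAC3F10.17*Δ and 0 in the rest, and in none of these was the share of the 35 above that of all genes past 1.5-fold. The deubiquitinase genes *ubp9* and *ubp5* were among those lower in both *sgf73*Δ and *meu29*Δ, with ratios to WT of 0.502 and 0.587 in *sgf73*Δ. *npl4*, whose product works with Cdc48 to extract ubiquitinated proteins, had a ratio of 0.626 in *meu29*Δ. In *SPAC3F10.17*Δ *ubp11* had a ratio of 0.455.

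Among 20 or 21 measured genes of the anaphase-promoting complex and of SCF ligases, *slp1* and *pof1* passed the threshold in most deletions. In *sgf73*Δ 3 of 21 were higher and 1 lower (18.4% of all genes passed), in *meu29*Δ 2 and 1 (16.2%). In *ash2*Δ 1 of 20 was higher and 3 lower (8.54%), in *SPAC3F10.17*Δ 2 and 2 (11.6%). On the *sec65*-labelled and *pab1*-labelled arrays 1 was higher and 1 lower (3.9% and 4.39%). In *SPBC2A9.02*Δ 1 was lower (6.21%), in *SPAC27D7.08c*Δ 0 passed (6.72%). *slp1*, the Cdc20 activator of the anaphase-promoting complex, was over 1.5-fold higher in 6 of 8 deletions, and up to 3.56-fold in *sgf73*Δ. The 6 include the *sec65*-labelled and *pab1*-labelled arrays. Its log2 signal was 10.21 in *sgf73*Δ, 9.36 in *meu29*Δ, 9.70 and 9.50 on the *sec65*-labelled and *pab1*-labelled arrays, 9.74 in *ash2*Δ, 9.49 in *SPAC3F10.17*Δ, 8.67 in *SPAC27D7.08c*Δ, 8.69 in *SPBC2A9.02*Δ and 8.38 in WT. *pof1*, an F-box gene, was over 1.5-fold lower in 7 of 8 deletions, the *sec65*-labelled and *pab1*-labelled arrays among them. It had log2 signals of 9.21 to 9.61 in those 7, 10.55 in *SPAC27D7.08c*Δ and 10.30 in WT. Both genes have WT at or near 1 end of the 9 arrays, so that the 1 WT array enters every one of these calls. *apc14* had a ratio of 1.99 in *sgf73*Δ and 0.471 in *ash2*Δ, and it also passed the threshold, as higher, in *meu29*Δ. The other genes past it in 1 deletion each were *apc13* in *sgf73*Δ and *apc15* in *SPAC3F10.17*Δ, both higher, and *apc10* in *ash2*Δ and *apc5* in *SPAC3F10.17*Δ, both lower. *apc13* had a log2 signal of 5.98 in *sgf73*Δ and 5.24 in WT, below the WT background of 5.26, so its ratio is to that background. *apc15* was also low, at 6.91 in *SPAC3F10.17*Δ and 6.01 in WT. Of 11 other ubiquitin ligase genes, *brl2*, which acts in ubiquitination of histone H2B, was 2.63-fold higher in *ash2*Δ. In *meu29*Δ *rhp18* was 1.52-fold higher, and *pub2* and *pub3* had ratios to WT of 0.621 and 0.567. *pub2* was also over 1.5-fold lower in *sgf73*Δ. Of the 11 genes, 1 thus passed in *sgf73*Δ (18.4% of all genes) and 1 in *ash2*Δ (8.54%). In *meu29*Δ 1 was higher and 2 lower (16.2%), and 0 passed in the rest.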

How the data were processed

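RNA was extracted by RNeasy Mini and labelled by GeneChip 3' IVT Express. The authors deposited 1 table of log2 signals for the 9 arrays. MAS5 is named in the submitters' processing notes with no step attached, and the scaling of the signals was not given in the sources used here. Deposited values were not normalized again. Of 10928 probe sets, 2917 matched *S. pombe* genes in the RefSeq gene table of ASM294v3, by Entrez ID or, where that was not found, by gene symbol. A gene with several used 1 probe set. Signals below the background (95th percentile) were raised to it before ratios were formed. Genes above background on neither array of a ratio were left out of the counts past a fold and of the other lists. Medians over all genes, shares higher or lower than WT, ranges and correlations used all 2899 genes. Ratios are the log2 signal of a deletion minus that of WT. Genes past 1.5-fold were counted, with lower and higher thresholds as alternatives, and list medians were set beside all genes. No test was made, since there was 1 array per genotype. The counting was checked on simulated data. Python 3.11.15, numpy 2.4.6 and pandas 2.3.3 were used.

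The members and lists were chosen with earlier results of these data known. Genes named with their values were those with the highest and lowest mean signal of core and cap, those with the 3 largest and 3 smallest ranges, *ump1*, *pts1*, *rpt2*, *mts4* and *rpn11*, and, from other lists, up to 6 genes past 1.5-fold. Other genes named, the division into rings, base and lid (from known homology), the counts of lowest and highest arrays, the correlations with the core mean and the set of genes of like signal were chosen after values were seen. So were 3 corrections of lists, where *pus1*, *sts1* and *upf3* name genes of another kind. Promoter and protein sequences were not used here, so that a planned search for promoter motifs was not made.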

Additional observations from a re-analysis of the deposited data

How the results depend on the processing

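No paired analysis was possible because each genotype had 1 array and the replicate number 1 is common to all. The count of proteasome genes past 1.5-fold, 0 in every deletion, became 3 in *sgf73*Δ and 1 each in *meu29*Δ, *ash2*Δ and *SPAC3F10.17*Δ at 0.32 on the log2 scale. It became 1 in *meu29*Δ (*rpt5*) when the other 7 deletions, by their median, stood in for WT, and 1 in *ash2*Δ (*rpn1302*) when arrays were scaled to their medians. The number of deletions whose median lay above that of all genes, 5 of 8 for all members, core and cap, was 3 of 6 for each without the *sec65*-labelled and *pab1*-labelled arrays. It was 6 of 8 for all members and for cap after quantile normalization. For all members it was also 6 with background at the 99th percentile, and for core 6 with the other 7 deletions in place of WT. A 2-fold threshold, quantile normalization, another or no background floor, 50 units added to each signal and the mean of all probe sets left the counts of genes at 0.

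Of 32 medians and core-to-cap differences, 5 changed sign with the other 7 deletions in place of WT, 3 each with median scaling and quantile normalization, 2 with subunits of other symbols added and 1 with the mean. Of the 8 core-to-cap differences, 1 changed sign with the cap ATPases alone and 2 with the other cap genes alone. The core median stayed between -0.22 and -0.14 in *sgf73*Δ and between -0.14 and -0.080 in *meu29*Δ over these settings. Cap minus core kept its sign in *sgf73*Δ (0.086 to 0.16), *SPAC27D7.08c*Δ (-0.12 to -0.068) and *SPBC2A9.02*Δ (0.015 to 0.088), and not in the other 5 deletions. The *sgf73*Δ array was lowest for 10 members after median scaling and for 11 after quantile normalization, while *ash2*Δ was highest for 12 and 7, and for 6 as deposited. The largest log2 ratio of each of the 27 genes kept its sign under every setting, but 3 changed in size with the other 7 deletions in place of WT. That of *rpn1302* in *ash2*Δ went from 0.56 to 0.36 and that of *rpn3* in *SPAC3F10.17*Δ from 0.35 to 0.19. That of *rpt5* in *meu29*Δ went from -0.55 to -0.76.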
